A study of Homo sapiens with 12 samples.

Results

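The genes described here encode the snoRNAs U3, U17, U22, U8 and U13. Their rows were found by symbol in both count tables and comprised 10 of the 61163 genes listed: SNORD3A, SNORD3B-1, SNORD3B-2, SNORD3C and SNORD3D for U3, SNORA73A and SNORA73B for U17 (also called E1), SNORD22 for U22, SNORD118 for U8 and SNORD13 for U13. All 10 passed the filter on low counts in every comparison. Total RNA was sequenced without rRNA depletion from a nucleolar (NO) and a combined cytoplasmic and nuclear (CN) fraction of HEK293T cells, an immortalized human embryonic kidney line. HEK WT cells were unmodified, and HEK UL1 KO cells carried a CRISPR-Cas9 knockout of HNRNPUL1, which encodes the RNA-binding protein hnRNP UL1. The labels give no treatment in either genotype. The labels describe biological triplicates, so that each of the 4 groups held 3 libraries. Whether the knockout line was 1 clone is not given in the sources used here.

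snoRNAs act in the nucleolus as particles with proteins and pair with ribosomal RNA. Most of them mark sites for methylation or pseudouridylation, whereas a small number is needed for the cuts that release the mature rRNAs from the pre-rRNA. U3, U17 and U22 act on the small subunit side, where 18S rRNA is released, and U8 acts on the large subunit side, where 5.8S and 28S rRNA are made. U13 differs from the others in its known role, because it guides the acetylation of 18S rRNA by NAT10 and is not known as a cleavage guide in human cells. U3, U8, U22 and U13 are box C/D snoRNAs bound by fibrillarin, and U17 is an H/ACA snoRNA bound by dyskerin. U3, U8 and U13 are transcribed from their own snRNA-type promoters, while U17 and U22 are cut from introns of host genes.

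The positions in GRCh38, taken from RefSeq, showed how far the reads of each gene could be told from those of others. The U3 genes lie together on chromosome 17, with SNORD3A at chr17:19188016-19188232 on the plus strand, SNORD3C at chr17:19190029-19190245 on the minus strand, SNORD3B-1 at chr17:19061912-19062128 on the plus strand, SNORD3B-2 at chr17:19063920-19064136 on the minus strand and SNORD3D at chr17:19112420-19112636 on the minus strand. In GENCODE v44, SNORD3D lies inside an exon of another gene on the same strand, and no other U3 gene overlaps one. SNORD3A is shown as the reference copy and SNORD3D as the copy with the most substitutions against it, because their likeness limits what the counts of single U3 genes can tell. Capitals mark every position, counted from 1 at the 5′ end, at which any of the 5 copies differs from another.
SNORD3A: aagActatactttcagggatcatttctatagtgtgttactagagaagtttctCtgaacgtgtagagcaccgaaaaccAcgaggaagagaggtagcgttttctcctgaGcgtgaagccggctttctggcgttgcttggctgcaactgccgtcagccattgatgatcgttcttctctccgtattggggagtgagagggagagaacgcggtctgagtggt
SNORD3D: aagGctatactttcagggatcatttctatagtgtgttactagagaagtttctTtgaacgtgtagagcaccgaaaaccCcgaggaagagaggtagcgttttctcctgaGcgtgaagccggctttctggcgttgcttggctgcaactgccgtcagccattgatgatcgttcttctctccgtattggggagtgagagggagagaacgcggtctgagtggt

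Relative to SNORD3A, SNORD3D carried A4G, C53T and A78C, SNORD3B-1 and SNORD3B-2 both carried A78C alone, and SNORD3C carried G108A alone. SNORD3B-1 and SNORD3B-2 were identical over all 217 bases. The reads were 75 bases long, and of the 143 windows of that length in each copy, 98 in SNORD3A, 68 in SNORD3C, 90 in SNORD3D and 143 in both SNORD3B copies also occur in another copy. Counts of single U3 genes are therefore uncertain, and the sum over the 5 genes was used as the level of U3. RefSeq gives each U3 gene 217 bases, but GENCODE v44 extends SNORD3A to 699, SNORD3B-1 to 758, SNORD3B-2 to 791 and SNORD3C to 581 bases. The annotation behind the deposited counts is not given in the sources used here.

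Both U17 genes lie on the plus strand of chromosome 1, SNORA73A at chr1:28507365-28507571 and SNORA73B at chr1:28508558-28508762, inside introns of RCC1 and SNHG3. In GENCODE v44, some SNHG3 transcripts also hold SNORA73A within an exon. The sequences of both are shown because U17 gave the largest log2 fold changes between the genotypes among these snoRNAs in both fractions, and capitals mark the bases at which an alignment of the pair differed.
SNORA73A: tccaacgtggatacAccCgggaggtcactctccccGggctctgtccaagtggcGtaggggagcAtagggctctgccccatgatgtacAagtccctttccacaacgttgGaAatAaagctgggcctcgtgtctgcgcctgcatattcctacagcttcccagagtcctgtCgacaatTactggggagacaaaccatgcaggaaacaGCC
SNORA73B: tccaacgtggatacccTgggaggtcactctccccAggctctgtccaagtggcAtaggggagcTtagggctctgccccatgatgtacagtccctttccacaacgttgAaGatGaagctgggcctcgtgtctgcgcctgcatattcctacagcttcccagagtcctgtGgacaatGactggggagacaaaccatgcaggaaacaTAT

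The U17 pair was 93.2% identical over 207 aligned positions, with 12 mismatches and 2 gap positions, and 0 of the 133 windows of 75 bases in SNORA73A occur in SNORA73B. SNORD22 lies at chr11:62852910-62853035 on the minus strand within SNHG1, where it is intronic in some transcripts and inside an exon of others. SNORD118 lies at chr17:8173452-8173588 on the minus strand, inside an exon in the UTR of TMEM107, and SNORD13 lies at chr8:33513475-33513578 on the plus strand and overlaps no other annotated gene.

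Total counts ranged from 37141666 to 83019079 in the NO libraries and from 54349399 to 104040073 in the CN libraries. The genotypes were compared with edgeR's quasi-likelihood test within each fraction, with p adjusted over all genes tested and called under 0.05. Log2 fold changes are of HEK UL1 KO over HEK WT cells unless stated. HNRNPUL1 was lower in HEK UL1 KO cells in both fractions, the log2 fold change being -2.0 (SE 0.323, adjusted p = 0.00649) in NO and -1.83 (SE 0.0828, adjusted p = 2.12e-07) in CN. In NO, 1 library stood apart: without HEK WT replicate 3 the same test called 5546 genes lower and 3587 higher, against 200 and 127 with it. Markers of HEK293T cells (VIM, KRT8, KRT18, NEFM, NEFL, INA, PAX2 and CDH2) were detected in every group. In CN, 3 of the 8 were called lower in HEK UL1 KO cells and 3 higher, and their summed level was 78.9 to 107 CPM (counts scaled to the library size) in HEK WT and 56.7 to 57.5 CPM in HEK UL1 KO cells. VIM lay at 34.5 to 50.3 CPM in HEK WT and 12.5 to 14.9 CPM in HEK UL1 KO cells, and KRT8 at 0.621 to 0.742 and 2.98 to 3.39 CPM. INA was nearly absent from HEK UL1 KO cells in CN, at 0.131 to 0.151 CPM (7 to 9 counts), against 2.86 to 4.27 CPM in HEK WT. In NO, 2 of the 8 were called lower and 0 higher, with sums of 42.2 to 63.5 CPM in HEK WT and 33.1 to 42.8 CPM in HEK UL1 KO cells. The defining markers of other cell types (PTPRC, CD3E, ALB, HBB, COL1A1 and PECAM1) summed to 1.01 to 1.67 CPM in HEK WT and 1.93 to 2.31 CPM in HEK UL1 KO cells in CN, and to 3.25 to 4.46 and 4.59 to 5.06 CPM in NO, so that HEK UL1 KO was higher without overlap. The nuclear RNAs MALAT1, NEAT1 and RN7SK summed to 630 to 772 CPM in HEK WT and 934 to 1000 CPM in HEK UL1 KO cells in CN, where 2 of the 3 were called higher. The part of these marker differences in the results below was not tested. In these bulk samples, fewer cells of a kind and less RNA per cell cannot be told apart.

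Every one of the 10 snoRNA genes was far more abundant in the NO than in the CN fraction, whichever genotype was examined. In HEK WT cells, NO against CN gave log2 fold changes from 3.75 for SNORD118 to 5.18 for SNORD3B-2, and all 10 were called higher at an adjusted p under 0.05, where 31.9% of the 29340 genes tested were called higher. In HEK UL1 KO cells the log2 fold changes ranged from 3.00 for SNORD22 to 4.90 for SNORD13, and again all 10 were called higher, against 40.7% of 34468 genes. The median over the 10 genes was 4.68 in HEK WT and 4.12 in HEK UL1 KO cells, beside 0.0182 and 0.0319 over all genes tested. The other snoRNA genes had medians of 3.44 in HEK WT and 3.08 in HEK UL1 KO cells. When library sizes were set by the summed counts of the other snoRNA genes, 9 of the 10 genes were called higher in NO in each genotype. Under that scaling, 79 of 29340 genes tested in HEK WT and 174 of 34468 in HEK UL1 KO cells were called higher. The median over all genes tested was then -3.19 in HEK WT and -2.38 in HEK UL1 KO cells.

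**Figure D1:**
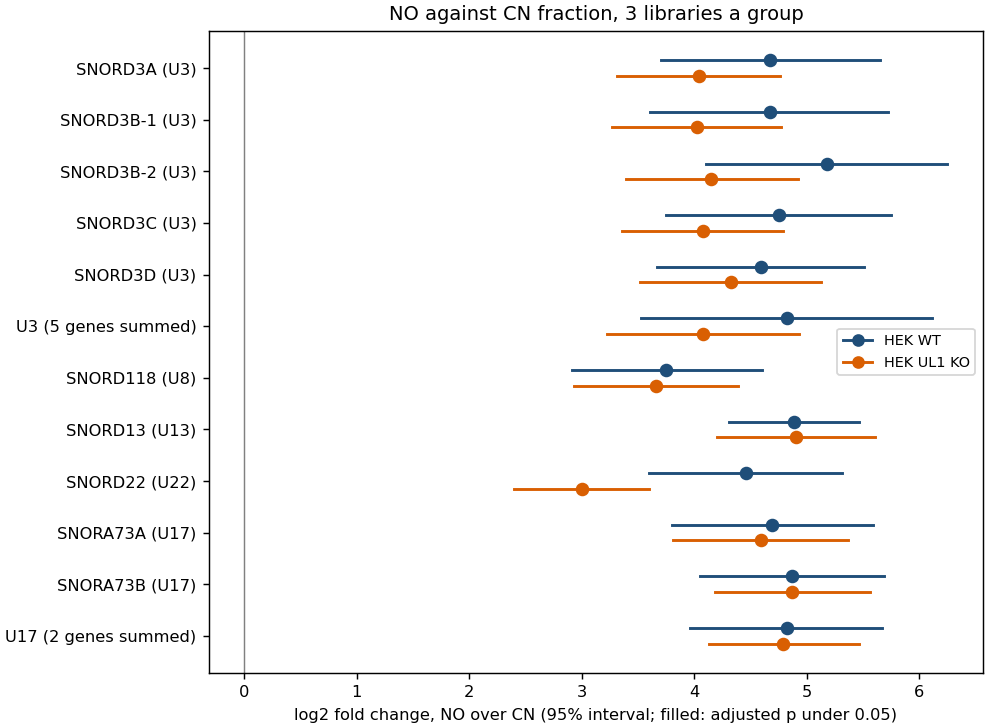
Log2 fold change of NO over CN (x axis) for each snoRNA gene and for the U3 and U17 sums (y axis) in HEK WT (blue) and HEK UL1 KO cells (orange), with 95% intervals from fits of 3 libraries a group. All points lie between 3.00 and 5.18, and all are filled, which marks an adjusted p under 0.05.

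U3, which binds the 5′ part of the pre-rRNA and 18S sequences and is needed for the early cuts, accounted for 2.6% to 4.73% of all counts in HEK WT NO libraries and for 2.1% to 3.39% in HEK UL1 KO NO libraries. In CN its share was 0.0883% to 0.103% in HEK WT and 0.0881% to 0.116% in HEK UL1 KO cells. Per kilobase of RefSeq length, and with all 12 libraries normalized together, the summed U3 level in HEK WT NO was 149000 ± 22500 CPM (SD, n = 3). No other member came near this level. SNORD13 reached 627 ± 162, SNORA73B 486 ± 178, SNORD118 354 ± 203, SNORA73A 191 ± 82.3 and SNORD22 62.4 ± 21.9 CPM per kilobase (SD, n = 3). In this order SNORD13, SNORA73B, SNORD118 and SNORA73A overlapped with their neighbours, whereas SNORD22, at 42.3 to 85.7, lay below the lowest SNORA73A value of 111.

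The genotype comparison asked which transcripts differ when hnRNP UL1 is lost. In the NO fraction, 3 of the 10 genes were called lower in HEK UL1 KO cells and 0 higher, while 0.574% of the 34836 genes tested were called lower and 0.365% higher. The 3 were both U17 genes and SNORD22. In the CN fraction 3 of 10 were called lower and 0 higher, where 22.3% of the 27234 genes tested were called lower and 15.6% higher. There the 3 were both U17 genes and SNORD118. U3 was called in neither fraction. Single libraries moved these counts. In NO, 1 gene was called without HEK WT replicate 1, 0 without HEK UL1 KO replicate 2 and 1 without HEK UL1 KO replicate 3, and in CN 5 were called without HEK WT replicate 2 or without HEK UL1 KO replicate 1. Over all genes tested, these fits called 63 of 35817, 84 of 36849 and 129 of 37197 lower in NO. In CN they called 5661 of 28406 and 4957 of 28910 lower.

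**Figure D2:**
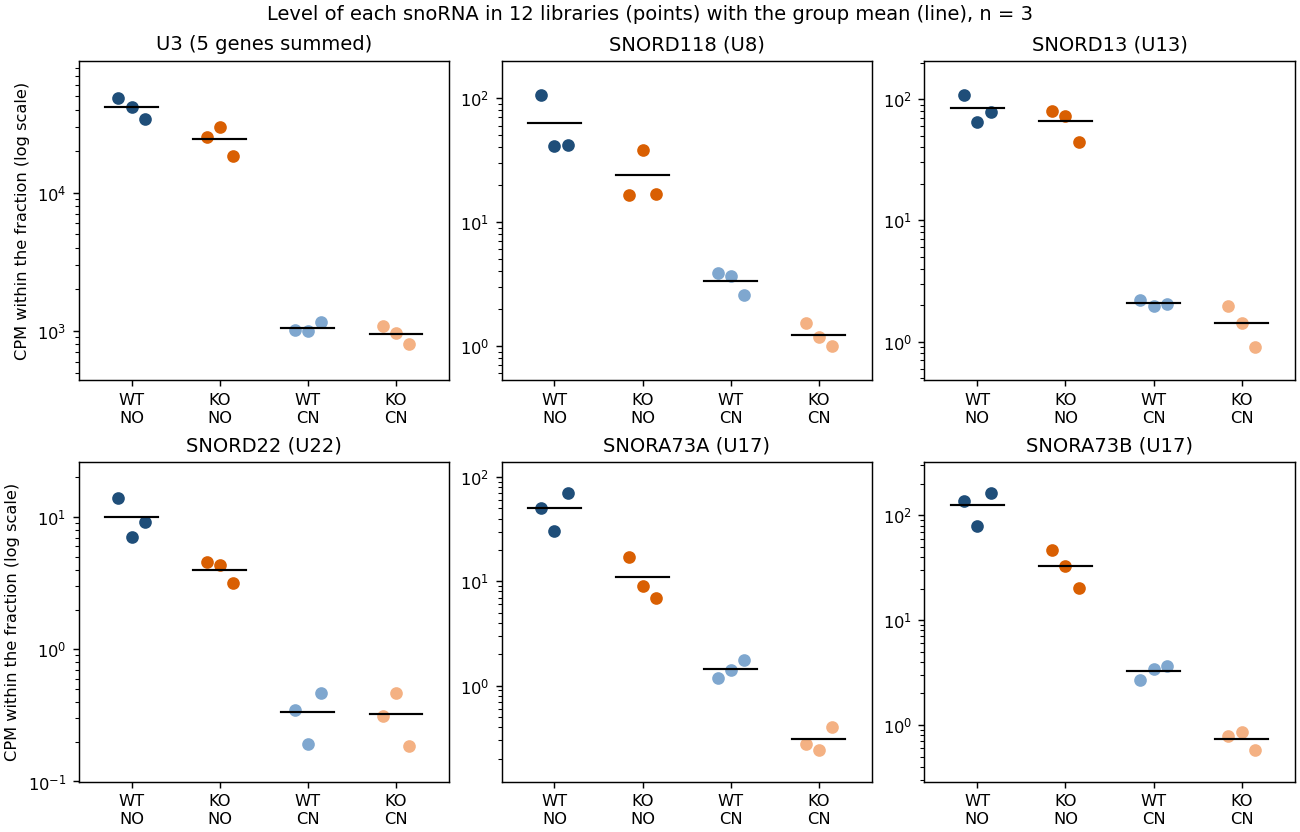
CPM in each of the 12 libraries (points, y axis on a log scale) by group (x axis), with the group mean as a line, for the U3 sum and 5 single genes. NO and CN libraries were normalized separately, so genotypes are compared within a fraction; both U17 genes have HEK UL1 KO libraries below every HEK WT library in each fraction.

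U17, an H/ACA snoRNA required for cuts on the 5′ side of 18S rRNA, showed the largest differences. SNORA73A in NO measured 50.5, 30.3 and 69.7 CPM in HEK WT replicates 1, 2 and 3 and 17, 8.99 and 6.92 CPM in HEK UL1 KO replicates 1, 2 and 3. The lowest HEK WT library was above the highest HEK UL1 KO library. The log2 fold change was -2.19 (SE 0.401, adjusted p = 0.0159). SNORA73B in NO measured 137, 80.0 and 162 CPM in HEK WT and 46.6, 32.7 and 20.3 CPM in HEK UL1 KO cells, with a log2 fold change of -1.93 (SE 0.409, adjusted p = 0.0346) and no overlap between the groups. CPM of the genotypes did not overlap, with HEK UL1 KO lower, in 9.17% of all genes tested in NO.

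In CN the U17 genes had fewer counts, with 99 to 141 counts of SNORA73A per HEK WT library and 18 to 24 per HEK UL1 KO library. SNORA73A measured 1.18, 1.42 and 1.78 CPM in HEK WT and 0.274, 0.240 and 0.405 CPM in HEK UL1 KO cells. Its log2 fold change was -2.27 (SE 0.248, adjusted p = 6.21e-05). The groups did not overlap, as was the case with HEK UL1 KO lower for 28.1% of genes in CN. SNORA73B measured 2.66, 3.40 and 3.66 CPM in HEK WT and 0.793, 0.853 and 0.574 CPM in HEK UL1 KO cells, with a log2 fold change of -2.11 (SE 0.180, adjusted p = 1.30e-05).

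Summed over both genes, U17 had a log2 fold change of -2.0 (95% interval -2.90 to -1.10, adjusted p = 0.0357) in NO and -2.16 (95% interval -2.49 to -1.83, adjusted p = 3.64e-06) in CN. These correspond to levels 4.0-fold and 4.47-fold lower in HEK UL1 KO cells. An exact two-sided permutation test of the U17 sum gave p = 0.1 in each fraction, the smallest value that 3 libraries against 3 allow. In CN the call held in all 14 alternatives examined, whereas in NO it was lost in 7 of 14. Leaving out HEK WT replicate 1, HEK UL1 KO replicate 2 or HEK UL1 KO replicate 3 raised the adjusted p in NO to 0.102, 0.117 and 0.133, with log2 fold changes of -1.93, -1.91 and -1.76. SNORA73A on its own kept its call when 1 library was left out, except without HEK UL1 KO replicate 2 (adjusted p = 0.0558). The ratio of SNORA73B to SNORA73A counts ranged from 1.42 to 3.63 over the 12 libraries and lay at 2.33 to 2.72 in HEK WT and 2.75 to 3.63 in HEK UL1 KO cells in NO, where the genotypes did not overlap, and at 2.05 to 2.39 and 1.42 to 3.56 in CN, where they did.

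**Figure D3:**
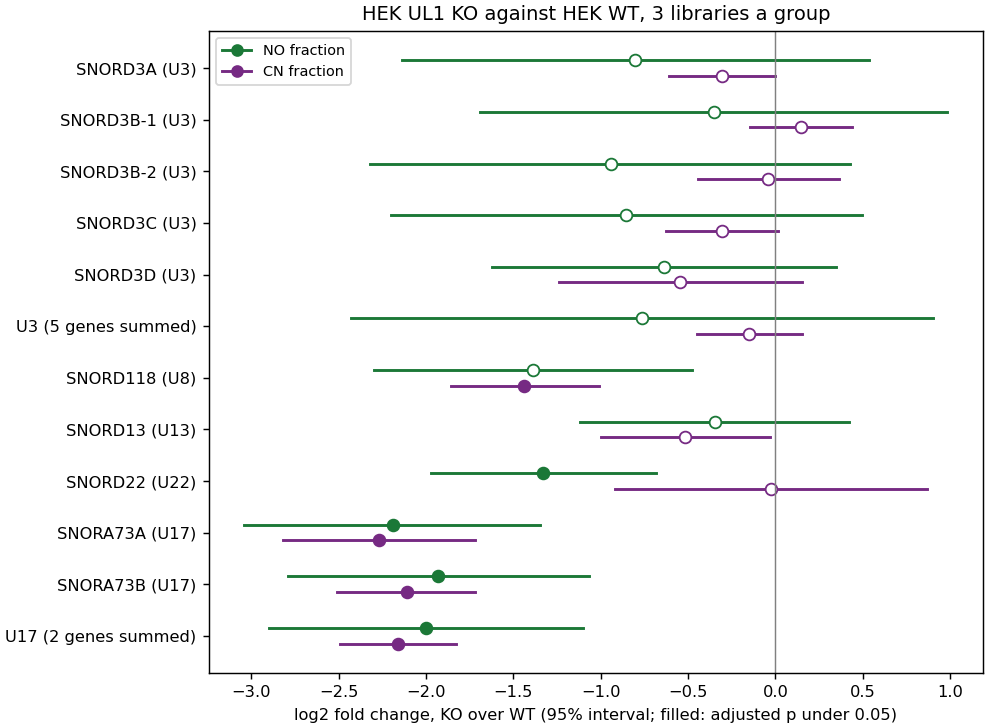
Log2 fold change of HEK UL1 KO over HEK WT (x axis) for each snoRNA gene and for the U3 and U17 sums (y axis) in NO (green) and CN (purple), with 95% intervals from fits of 3 libraries a group; filled points have an adjusted p under 0.05. The U17 points lie between -2.27 and -1.93 in both fractions, and the U3 intervals are wide in NO, where the sum spans -2.43 to 0.903. The variance behind each interval was moderated toward a trend over other genes.

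The counts of the genes that hold U17 moved with it. In NO the U17 counts came to 91.1% to 101% of the SNHG3 counts and 81.4% to 98.8% of the RCC1 counts, so that the values of SNHG3, a host noncoding RNA, and RCC1, the exchange factor for the Ran GTPase, were close to those of the snoRNAs. In NO, SNHG3 had a log2 fold change of -1.97 (adjusted p = 0.0348) and RCC1 one of -1.93 (adjusted p = 0.0349). In CN the U17 counts came to 41.5% to 47.5% of the SNHG3 counts in HEK WT and 26.1% to 28.6% in HEK UL1 KO cells. In 1 NO library U17 exceeded SNHG3, so the SNHG3 count did not hold every read counted for U17, and how shared reads were counted is not given in the sources used here. With that limit, the counts left after subtracting U17 were tested in CN. This remainder was also lower in HEK UL1 KO cells for SNHG3, with a log2 fold change of -0.98 (SE 0.110, adjusted p = 7.65e-05), and for RCC1, with one of -0.90 (SE 0.0788, adjusted p = 1.51e-05). Whether U17 fell by more than its host genes was not tested.

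U22 is excised from an intron of SNHG1 and is needed for 18S rRNA processing. SNORD22 in NO measured 14.0, 7.06 and 9.13 CPM in HEK WT and 4.55, 4.31 and 3.17 CPM in HEK UL1 KO cells. Every HEK UL1 KO library was below every HEK WT library, and the log2 fold change was -1.33 (SE 0.305, adjusted p = 0.0462). This call was lost in 9 of 14 alternatives, including those without HEK WT replicate 1 (adjusted p = 0.406), HEK UL1 KO replicate 1 (adjusted p = 0.0782), HEK UL1 KO replicate 2 (adjusted p = 0.118) and HEK UL1 KO replicate 3 (adjusted p = 0.144).

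In CN, SNORD22 had only 11 to 37 counts per library and measured 0.345, 0.191 and 0.468 CPM in HEK WT and 0.315, 0.466 and 0.186 CPM in HEK UL1 KO cells. The groups overlapped almost fully. Its log2 fold change was -0.03 (95% interval -0.92 to 0.87, adjusted p = 0.965), and the value in NO lay outside this interval. The effect in NO less that in CN was -1.15 (SE 0.488, unadjusted p = 0.0295, adjusted p = 1) and did not pass the test. It was the only one of the 10 genes with an unadjusted p under 0.05 for the interaction of genotype and fraction, in which 0 of 10 genes passed the adjusted threshold, as against 0.114% of 37806 genes tested, and 3.32% of those had an unadjusted p under 0.05. With DESeq2 the interaction also called 0 of 10.

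The host SNHG1 measured 77.0, 51.1 and 50.3 CPM in HEK WT and 32.7, 35.5 and 23.0 CPM in HEK UL1 KO cells in NO, the log2 fold change being -0.97 (adjusted p = 0.175). In CN, single libraries set its level, because HEK WT replicate 1 had 2061 counts against 712 and 717 in the others and HEK UL1 KO replicate 3 had 5151 against 479 and 518. Its log2 fold change in CN was 1.25 (SE 0.842, adjusted p = 0.263) with all libraries and -1.04 (adjusted p = 0.0887) without HEK UL1 KO replicate 3.

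U8 is required for the cuts that yield 5.8S and 28S rRNA. SNORD118 in CN measured 3.85, 3.64 and 2.56 CPM in HEK WT and 1.52, 1.17 and 0.996 CPM in HEK UL1 KO cells, from 59 to 324 counts per library. The groups did not overlap. The gene had a log2 fold change of -1.44 (SE 0.192, adjusted p = 2.30e-04), a level 2.71-fold lower, and this call held in all 14 alternatives. In NO the gene measured 105, 41.0 and 41.5 CPM in HEK WT and 16.5, 38.1 and 16.9 CPM in HEK UL1 KO cells. HEK WT replicate 1 was far above the other HEK WT libraries, and HEK UL1 KO replicate 2 lay just below them, without overlap. The log2 fold change in NO was -1.39 (SE 0.433, adjusted p = 0.134), and it passed the test at -1.63 (adjusted p = 0.0102) without HEK WT replicate 3 and moved to -0.77 (adjusted p = 0.734) without HEK WT replicate 1.

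TMEM107, a gene of the ciliary transition zone whose transcript contains SNORD118, received counts close to those of the snoRNA in NO, where the SNORD118 counts came to 93.1% to 99.2% of them. In CN they came to 75.2% to 78.8% in HEK WT and 43.4% to 50.5% in HEK UL1 KO cells. TMEM107 as counted had a log2 fold change of -0.71 (adjusted p = 0.00602) in CN. After the SNORD118 counts were subtracted, under the same limit, its value was 0.51 (SE 0.191, adjusted p = 0.0583), with HEK UL1 KO cells above HEK WT cells.

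**Figure D4:**
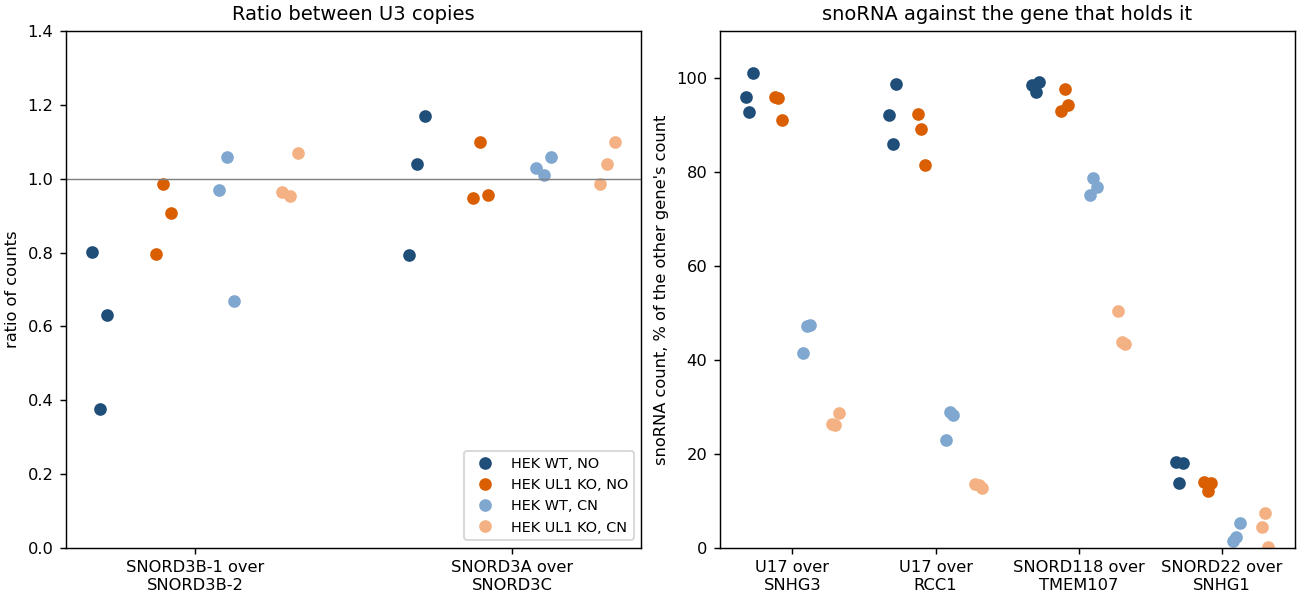
Left, the ratio of counts between U3 copies in each library (y axis) by group (colour). Right, the count of a snoRNA as a percentage of the count of the gene that holds it (y axis); U17 reaches 101% of SNHG3 in 1 HEK WT NO library, and SNORD22 stays at or below 18.2% of SNHG1.

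U3 summed over its 5 genes measured 48700, 41900 and 34000 CPM in HEK WT and 25400, 29800 and 18300 CPM in HEK UL1 KO cells in NO. The groups did not overlap. The log2 fold change was -0.76 (95% interval -2.43 to 0.90, adjusted p = 0.636) and the interval held both 0 and a decrease as large as that of U17. Its variance was moderated toward a trend over other genes, so the interval does not measure the spread of the U3 values alone. How much of its width came from the moderation was not tested. An exact two-sided permutation test of the U3 sum in NO gave p = 0.1, the same value as for U17. DESeq2 gave the U3 sum in NO a log2 fold change of -0.81 (adjusted p = 0.068). In CN the U3 sum measured 1020, 992 and 1160 CPM in HEK WT and 1090, 965 and 808 CPM in HEK UL1 KO cells. These groups overlapped, and the log2 fold change was -0.15 (95% interval -0.45 to 0.15, adjusted p = 0.404), so that a decrease of the size measured for U17 or U8 lay outside the interval.

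Among the single U3 genes, the log2 fold changes ranged from -0.94 for SNORD3B-2 to -0.35 for SNORD3B-1 in NO, with adjusted p from 0.478 to 0.794. In CN they ranged from -0.54 for SNORD3D to 0.15 for SNORD3B-1, with adjusted p from 0.101 to 0.877. In CN, SNORD3A (adjusted p = 0.0254) and SNORD3C (adjusted p = 0.0488) passed without HEK WT replicate 2, and SNORD3D (adjusted p = 0.0324) passed without HEK UL1 KO replicate 1. DESeq2 called 7 of the 10 genes lower in NO, adding SNORD3A (adjusted p = 0.0363), SNORD3B-2 (adjusted p = 0.0244), SNORD3C (adjusted p = 0.0354) and SNORD118 (adjusted p = 0.016). In CN it called 5, adding SNORD3A (log2 fold change -0.37, adjusted p = 0.0376) and SNORD3C (log2 fold change -0.37, adjusted p = 0.0483). Of all genes tested, DESeq2 called 823 of 58746 lower in NO and 5760 of 55568 lower in CN.

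The copies did not receive equal counts. The identical SNORD3B-1 and SNORD3B-2 stood in ratios from 0.377 to 1.07 over the 12 libraries, and the lowest ratios, 0.377 and 0.630, were in HEK WT replicates 2 and 3 of NO. SNORD3A and SNORD3C, which differ at G108A alone, stood in ratios from 0.794 to 1.17. SNORD3D, the copy with 3 substitutions, held 1.23% to 3.17% of the U3 counts.

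SNORD13 was called in neither fraction. In CN it measured 2.19, 1.97 and 2.04 CPM in HEK WT and 1.96, 1.43 and 0.912 CPM in HEK UL1 KO cells, with HEK UL1 KO replicate 1 just under the lowest HEK WT library. The log2 fold change was -0.52 (95% interval -1.0 to -0.03, adjusted p = 0.0875), and it passed the test at -0.83 (adjusted p = 0.0143) without that library. In NO the gene measured 108, 65.3 and 77.9 CPM in HEK WT and 79.6, 73.2 and 44.3 CPM in HEK UL1 KO cells, which overlapped, with a log2 fold change of -0.35 (SE 0.364, adjusted p = 0.640).

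The other snoRNA genes, most of them modification guides, give the setting for these values. Some symbols fill several rows, told apart by a number added to the name and often with the same values. In CN, SNORA38, SNORA38_1, SNORA38_3, SNORA38_5 and SNORA38_6 each had a log2 fold change of -1.54 (adjusted p = 0.028). Such rows were kept as separate genes, so every count, median and rank of the other snoRNA genes weighs some snoRNAs repeatedly. In NO, 49 of 294 tested were called lower in HEK UL1 KO cells and 0 higher, with a median log2 fold change of -1.05, beside -0.90 over the 10 genes and 0.00396 over all genes. Single libraries set this count, which was 10 without HEK WT replicate 1, 184 (182 lower, 2 higher) without HEK WT replicate 3, 30 without HEK UL1 KO replicate 2 and 19 without HEK UL1 KO replicate 3, and it was 0 with total counts as library size. In CN, 79 of 179 were called lower and 3 higher, with a median of -0.83, beside -0.41 over the 10 genes and 0.0382 over all genes. The 82 calls in CN became 54 without HEK UL1 KO replicate 3. SNORA73A had a more negative log2 fold change than all but 7 of the 294 in NO and all but 3 of the 179 in CN. SNORD3B-1 stood at the opposite end, with 266 of 294 in NO and 166 of 179 in CN more negative.

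**Figure D5:**
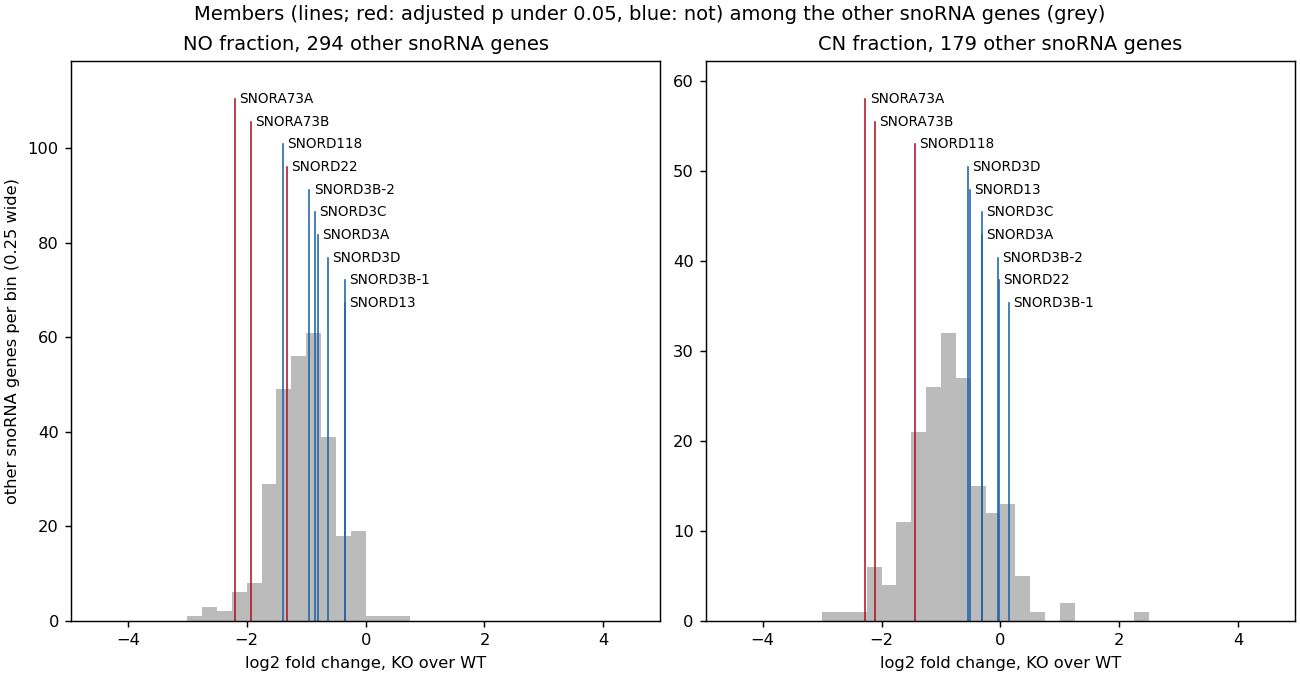
Distribution of the log2 fold change of HEK UL1 KO over HEK WT (x axis, bins of 0.25) over the other snoRNA genes (grey, y axis: genes per bin) in NO (left) and CN (right), with each of the 10 genes as a line, red where the adjusted p is under 0.05. The U17 lines lie in the lower tail of the grey distribution, and the U3 and SNORD13 lines lie above the medians of -1.05 and -0.83.

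To compare the 10 genes with the other snoRNAs directly, library sizes were set by the summed counts of the other snoRNA genes, of which the U3 pseudogene SNORD3P3 held 12.3%. This scaling shifted the median of all genes to 1.22 in NO and 0.557 in CN. In CN, U17 was lower also against the other snoRNAs, with a log2 fold change of -1.65 (adjusted p = 1.89e-05), and so was SNORD118, at -0.93 (adjusted p = 0.00252). U3 was called higher against them, at 0.37 (adjusted p = 0.0367), which lay below the median of 0.557 over all genes. Of the 27234 genes tested in CN, 13489 were called higher under this scaling and 1277 lower. In NO none of the 10 genes passed under this scaling, with 0 at an unadjusted p under 0.05, and U17 measured -0.77 (adjusted p = 0.302). HNRNPUL1, the gene knocked out, did not pass there either, at -0.89 (adjusted p = 0.168). Of the 34836 genes tested in NO, 19387 were called higher under this scaling and 46 lower.

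The proteins of these particles were examined through 5 lists of genes. In NO, 0 genes of each list were called, and at an unadjusted p under 0.05 the lists held 2, 3, 2, 1 and 1 genes in the order given here, against 16% of all genes. The medians in NO were -0.60, -0.63, -0.33, -0.39 and -0.19, and 8 of 8, 5 of 6, 9 of 9, 13 of 13 and 9 of 13 genes tested had negative log2 fold changes. Without HEK WT replicate 3, the same fit called 6, 4, 3, 6 and 3 genes of the lists, all of them lower. That fit called 5546 of all 36336 genes tested lower. In CN, 5 of 8 genes of box C/D and U3 proteins were called lower, with a median of -0.31. These included FBL, the methyltransferase fibrillarin, at -0.47 (SE 0.0844, adjusted p = 0.00156), and NOP58, a core scaffold, at -0.29 (SE 0.0666, adjusted p = 0.00663). Of 6 genes of H/ACA proteins 3 were called lower, among them SHQ1, an assembly chaperone of dyskerin, at -0.96 (SE 0.0879, adjusted p = 2.04e-05), and DKC1, dyskerin itself, at -0.67 (SE 0.0861, adjusted p = 1.77e-04).

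Among factors that assemble snoRNPs, 5 of 9 were called lower in CN, with ZNHIT6 at -0.98 (SE 0.0747, adjusted p = 6.55e-06) and RPAP3 at -0.33 (SE 0.0799, adjusted p = 0.00856). Of 13 factors for maturation, the cap and transport, 7 were called lower, with the export receptor XPO1 at -0.65 (SE 0.0786, adjusted p = 1.22e-04) and the cap-binding NCBP1 at -0.56 (SE 0.0720, adjusted p = 1.72e-04). The factors for snRNA-type promoters and 3′ ends, which serve U3, U8 and U13, had 3 genes called lower and 3 higher of 13 tested, with SNAPC5 at 0.94 (SE 0.135, adjusted p = 3.71e-04) and POU2F1 at -0.50 (SE 0.0736, adjusted p = 4.40e-04). Read against the 22.3% of all genes called lower in CN, these counts depended on single libraries and on the scaling. The count for box C/D and U3 proteins was 3 without HEK WT replicate 1 or 3 or HEK UL1 KO replicate 2, and that for assembly factors was 3 on leaving out any 1 of these libraries and 2 without HEK UL1 KO replicate 1 or 3. The calls for promoter and 3′ end factors, 6 in all, were 3 without HEK UL1 KO replicate 1. With 1 library left out, 4498 to 5661 of all genes were called lower, of 28406 to 28975 tested. With all 12 libraries in one fit the lists held 0, 2, 1, 0 and 1 calls. That fit called 2425 of all 37806 genes tested lower and 1792 higher. With total counts as library size, the lower calls in the lists came to 0, 2, 1, 0 and 0, where 1724 of all 27234 genes tested were called lower. Scaled to the other snoRNA genes they came to 0, 1, 1, 0 and 0, with 4, 2, 6, 7 and 10 called higher. Under that scaling, 13489 of all 27234 genes tested in CN were called higher and 1277 lower. FBL, NOP58, RPAP3 and POU2F1 turned to positive values there.

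Over all 12 libraries, the log2 CPM (pseudocount 0.5) of 3795 genes was compared with that of the U3 sum. These genes averaged at least 10 CPM, and snoRNA genes were left out by symbol (SNORD or SNORA) only. The most similar were MIR1248, SNHG17, TEX11, DANT1 and TMEM107, with Pearson's r of 0.973, 0.957, 0.949, 0.949 and 0.943. The libraries fall into 2 clusters, NO and CN, and r was not computed within them. The counts of TMEM107 in NO were close to those of SNORD118, as given above. Whether the counts of MIR1248, SNHG17, TEX11 and DANT1 also held snoRNA reads was not tested.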

How the data were processed

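RNA-seq of both fractions from each genotype, with 3 libraries in each group, was analysed from the raw counts per gene that the authors deposited as 1 table per fraction, without normalization. Per the paper, libraries came from a CORALL Total RNA-Seq kit and single reads of 75 bases were trimmed with Cutadapt, aligned to GRCh38 with STAR, allowing up to 20 alignments per read, and counted with featureCounts. The submitters' processing notes give cutadapt 3.7 and STAR 2.7.8. The counting options, strand setting and annotation are not given in the sources used here, so reads shared by copies or by a snoRNA and its host may have been split, dropped or counted in both. If shared reads were counted in each copy, the U3 sum and its share of all counts hold some reads more than once. All 12 columns were matched by label, and 0 were left unmatched.

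Counts were filtered with filterByExpr (minimum count 10, minimum total 15), normalized by TMM and tested with edgeR 4.0.16 in R 4.3.3 (quasi-likelihood test, Benjamini-Hochberg adjustment over all genes tested, called under 0.05), with DESeq2 1.42.0, the study's tool, as an alternative. CPM of the members and their host genes are TMM-normalized within a fraction. Marker CPM, levels per kilobase and the values correlated with U3 come from all 12 libraries normalized together. The summed U3 or U17 counts replaced their genes as 1 entry in a separate fit. Exact two-sided permutation tests compared CPM of single genes. Positions came from RefSeq (GRCh38.p14) and overlaps from GENCODE v44, and sequences were read from GRCh38 at the RefSeq positions and aligned with Biopython. Promoter sequences were not used here. The edgeR procedure was tested on simulated counts. The members and gene lists were chosen with earlier results of these data known. The genes named are the 10 members, HNRNPUL1, genes that hold a member, of each list at most the 4 with the smallest p among those called in a fraction, of which the first 2 are printed, and the 5 genes most correlated with U3. SNORD3P3 and SNORA38 were named after their values were seen. The alternatives are in the closing section. Replicates of the same group differed by more than sampling noise. Same-numbered replicates are not stated to be paired, so the tests carry no block. The p-values rest on the spread between these libraries, with the variance of each gene moderated toward a trend over the other genes tested.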

Additional observations from a re-analysis of the deposited data

How the results depend on the processing

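In every alternative run, 9 or 10 of the 10 genes were called higher in NO than in CN in each genotype, and 0 were called for the interaction. With library sizes from the other snoRNA genes, 79 of all 29340 genes tested in HEK WT and 174 of 34468 in HEK UL1 KO cells were called higher. In CN the U17 sum (-2.29 to -2.0 when 1 library was left out) and SNORD118 kept their calls throughout. The number of genes called lower in NO, 3 in the report, was 7 with DESeq2, 0 with total counts, 0 with library sizes from the other snoRNA genes, 0 with at least 10 counts in every library, 1 with a replicate block, and 0 to 4 when 1 library was left out. In CN, 3 became 5 with DESeq2, 5 with no filter, 5 (3 lower, 2 higher) with library sizes from the other snoRNA genes, and 3 to 5 with 1 library left out. Of all genes tested in NO, 823 of 58746 were called lower with DESeq2 and 3 of 34836 with total counts. Requiring at least 10 counts in every library gave 71 of 25395. Library sizes from the other snoRNA genes gave 46 and the replicate block 119, each of 34836. In CN, DESeq2 called 5760 of 55568 lower and the fit with no filter 5961 of 55591. With 1 library left out, 63 to 5546 genes were called lower in NO and 4498 to 5661 in CN. With library sizes from the other snoRNA genes, 13489 of all 27234 genes tested in CN were called higher and 1277 lower. The U17 sum in NO lost its call with total counts (-1.69, adjusted p = 0.71), with library sizes from the other snoRNA genes (-0.77, adjusted p = 0.302), with at least 10 counts in every library (-1.91, adjusted p = 0.0693) and with the replicate block (-2.01, adjusted p = 0.0986), and ranged from -2.36 to -1.76 when 1 library was left out. Same-numbered replicates correlated negatively after group means were removed (-0.48 to -0.0456), so the numbers were not taken as pairs, and in CN the block changed no call among the 10 genes. The U3 sum ranged from -0.90 to -0.59 in NO and from -0.28 to -0.03 in CN when 1 library was left out.

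Scaling turned the direction of several values, and the cause was not tested beyond the shift of the median of all genes, to 0.399 in NO and 0.241 in CN with total counts and to 1.22 and 0.557 with the other snoRNA genes. With the other snoRNA genes, values in NO became 0.40 for the U3 sum, 0.33 for SNORD3A, 0.88 for SNORD3B-1, 0.18 for SNORD3B-2, 0.33 for SNORD3C, 0.56 for SNORD3D, 0.86 for SNORD13 and 0.24 for SNHG1. In CN they became 0.37 for the U3 sum, 0.22 for SNORD3A, 0.47 for SNORD3B-2, 0.22 for SNORD3C, 0.49 for SNORD22, 0.061 for FBL, 0.235 for NOP58, 0.19 for RPAP3 and 0.022 for POU2F1. HNRNPUL1 itself lost its call in NO with total counts (-1.42, adjusted p = 0.258) and with the other snoRNA genes (-0.89, adjusted p = 0.168). With total counts SNORD3B-1 (0.10) and SNORD13 (0.084) turned in NO, and the U3 sum (0.063), SNORD3B-2 (0.20) and SNORD22 (0.21) turned in CN. With at least 10 counts in every library SNORD3B-2 (0.038) and SNORD22 (0.057) turned in CN. Leaving out 1 library turned SNORD3B-1 in NO without HEK WT replicate 1 (range -0.565 to 0.07), SNORD3B-2 (range -0.22 to 0.23) and SNORD22 (range -0.39 to 0.34) in CN without HEK WT replicate 3 or HEK UL1 KO replicate 3, and SNHG1 in CN without HEK UL1 KO replicate 3 (range -1.04 to 1.92). TMEM107 turned to 0.51 in CN when the SNORD118 counts were subtracted, an alternative chosen after seeing the data. SNORD22 had at most 37 counts per CN library, which limits what can be said of it there.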
